A study of Mus musculus with 10 samples.

Results

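A set of genes of extracellular and cell-surface proteolysis, 9 of the 53379 genes counted, were followed across spleen dendritic cells with and without Atg16l1. They are the secreted or membrane-bound matrix metalloproteases Mmp9, Mmp12 and Mmp14, their inhibitors Timp1, Timp2 and Timp3, and the sheddases Adam8, Adam10 and Adam17. Mmp9 was selected on its lower counts in KO than in WT at the label CD8, so that comparison describes the genes and tests none of them. The other 8 genes belong to the same protein families and were listed with earlier results of these data known, so whether measured values also chose them is not known.

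Matrix metalloproteases are zinc enzymes that cut collagen, gelatin, elastin and other matrix proteins, and they are made as inactive precursors. ADAM proteases sit in the cell membrane and release the outer parts of other membrane proteins, such as TNF, Notch receptors and adhesion molecules. TIMP proteins bind the active site of matrix metalloproteases and of some ADAM proteases and block it. In dendritic cells, metalloproteases are known for their part in migration through tissue and in the release of cytokines and receptors from the cell surface.

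The series examined dendritic cell subsets from spleens of 16-week-old C57BL/6 mice of genotype Atg16l1 +/+ (WT) or Atg16l1 -/- (KO), and its title places them in a mouse model of atherogenesis. Atg16l1 encodes a scaffold of the autophagy machinery. Dendritic cells of individual mice were sorted into these subsets by their CD11b and CD8 staining, and stranded libraries were made from total RNA. The 10 libraries fell into 4 groups: 3 of CD11b WT, 3 of CD8 WT, 2 of CD11b KO and 2 of CD8 KO. The sample labels name no Cre line, promoter, deleted exon, diet or second mutation, so the cells that lacked Atg16l1 and the means used to bring on atherogenesis are not given in the sources used here. Whether libraries of different labels came from the same mouse is likewise not given there.

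Values are in CPM, a gene's counts scaled to a common library total (between 9467704 and 13768884 gene counts per library). Atg16l1 counts were lower in every KO library, between 1.73 and 3.31 CPM in 4 libraries against 13.3 to 32.7 CPM in the 6 from WT mice. The labels and the markers of the subsets went opposite ways. All 12 markers of type 1 conventional dendritic cells, among them Xcr1 and Clec9a, were higher in libraries labelled CD11b than in those labelled CD8, in WT and in KO (edgeR). Of 12 markers of type 2 conventional dendritic cells, 12 were lower at the label CD11b in WT and 11 in KO. Itgam, which encodes CD11b itself, reached 76.1 to 104 CPM under the label CD8 but 1.58 to 2.73 CPM under the label CD11b. The groups keep their labels here, and each direction is between labels, not between cell types known by other means.

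The promoters of the genes that differed most between the labels are shown for reference, since Mmp12 and Mmp14 were high at the label CD8 and Adam8 at the label CD11b. Of the 9 genes, 8 matched an entry among the RefSeq promoters (GRCm38.p6), with 9 windows in all because Mmp12 has 2 annotated starts; Mmp9 had none. Each line gives the 250 bases before a start site, 5′ to 3′ on the gene's strand, and capitals mark a match to a motif searched. The stretches lie at chr9:7344147-7344396 and chr9:7347124-7347373 for Mmp12 (plus strand), chr14:54431348-54431597 for Mmp14 (plus strand) and chr7:139992563-139992812 for Adam8 (minus strand).
Mmp12, first start: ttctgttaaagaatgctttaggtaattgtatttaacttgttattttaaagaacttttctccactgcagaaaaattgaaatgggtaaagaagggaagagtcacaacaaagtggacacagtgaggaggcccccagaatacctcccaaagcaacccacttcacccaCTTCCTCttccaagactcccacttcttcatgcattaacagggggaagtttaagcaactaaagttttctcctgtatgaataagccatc
Mmp12, second start: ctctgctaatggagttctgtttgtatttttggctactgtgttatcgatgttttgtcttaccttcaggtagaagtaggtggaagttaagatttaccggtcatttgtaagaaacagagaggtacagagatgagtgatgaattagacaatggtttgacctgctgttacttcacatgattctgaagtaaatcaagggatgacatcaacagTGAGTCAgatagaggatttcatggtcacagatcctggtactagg
Mmp14: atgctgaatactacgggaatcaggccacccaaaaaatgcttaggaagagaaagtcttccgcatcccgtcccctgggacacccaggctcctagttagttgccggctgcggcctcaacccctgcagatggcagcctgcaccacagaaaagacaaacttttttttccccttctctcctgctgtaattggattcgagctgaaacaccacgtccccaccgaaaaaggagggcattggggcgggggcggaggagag
Adam8: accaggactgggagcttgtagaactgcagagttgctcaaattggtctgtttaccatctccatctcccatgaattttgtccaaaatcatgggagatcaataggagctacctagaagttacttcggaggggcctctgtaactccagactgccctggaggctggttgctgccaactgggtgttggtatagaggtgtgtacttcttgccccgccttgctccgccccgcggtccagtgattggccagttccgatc

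The letters TGANTCA, the site of AP-1 factors, were searched on both strands of windows from 250 bases before to 50 after each start. They occurred in 1 of the 9 windows, that of the second Mmp12 start, 44 bases before it, and in 7.81% of 32851 windows of this length in all genes. The letters GAGGAAG, a core site of the myeloid factor PU.1, occurred in 2 of the 9 windows and in 13.6% of all windows. In the first Mmp12 window they stand 87 bases before the start on the opposite strand, and in the Adam10 window 22 bases after it. A match describes letters only, and a window without one says nothing about the factor.

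Between the labels, members differed in both directions. The matrix metalloproteases Mmp9, Mmp12 and Mmp14 were higher in libraries labelled CD8, and the sheddase Adam8 was higher in those labelled CD11b, in WT and in KO. Adam10 and Adam17 differed by little between any groups compared. The TIMP genes were low throughout.

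**Figure D1:**
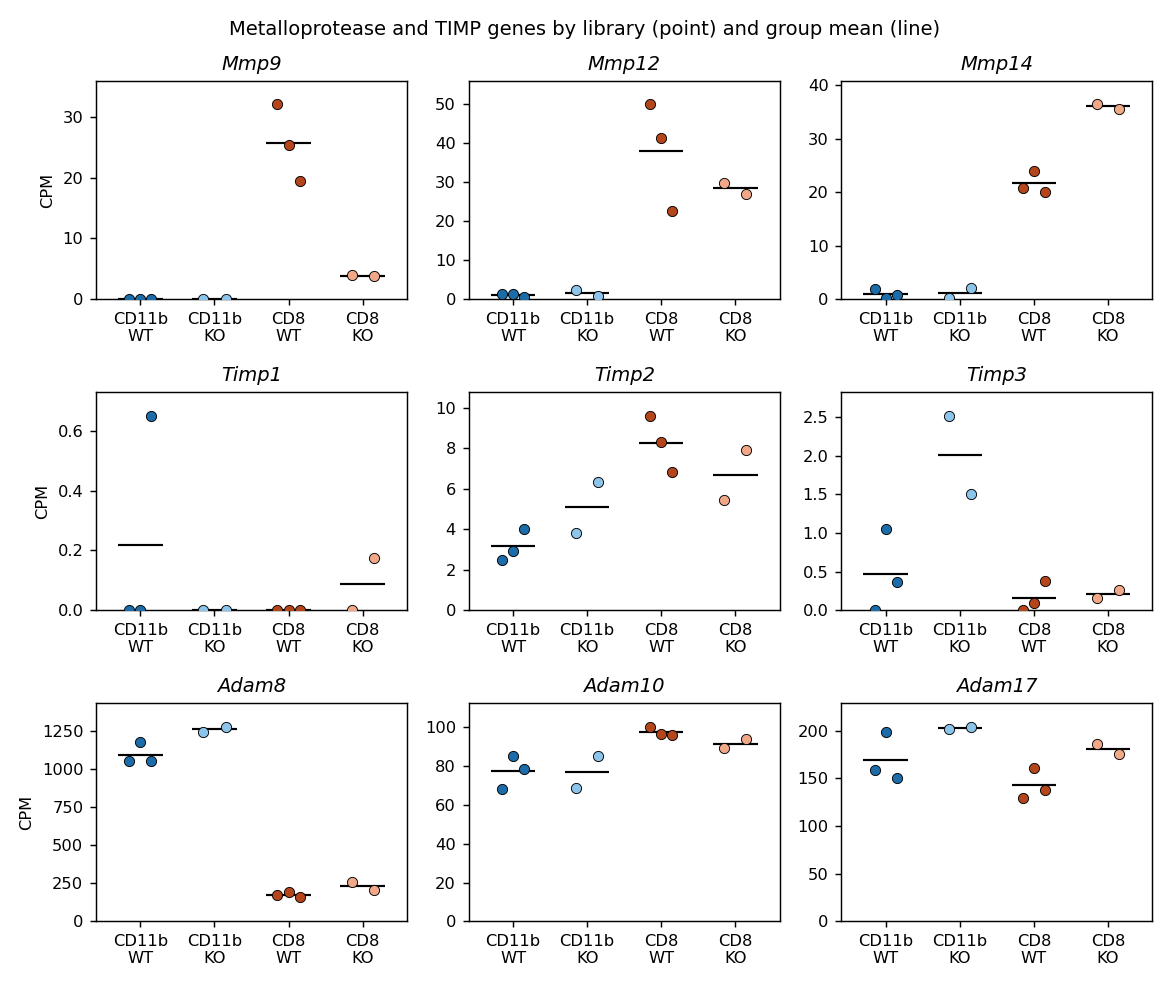
CPM of the 9 genes (vertical axis, linear, from 0, its own range per gene) in the 4 groups of label and genotype, with 1 point per library and a line at the group mean. Mmp9, Mmp12 and Mmp14 are near 0 at the label CD11b and high at the label CD8, Adam8 runs the other way, and Mmp9 is at 3.83 to 3.95 CPM in CD8 KO against 19.4 to 32.1 CPM in CD8 WT.

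Mmp9 (ENSMUSG00000017737, chromosome 2, 164940780 to 164955850) encodes gelatinase B, which cuts denatured collagen and basement membrane collagen. It had 297, 281 and 205 counts in CD8 WT 1 to 3 (32.1, 25.4 and 19.4 CPM) and 48 and 44 counts in CD8 KO 1 and 2 (3.95 and 3.83 CPM). In the libraries labelled CD11b it had 0 counts in 4 of 5 and 1 count in CD11b KO 2 (0.0833 CPM). The groups at the label CD8 do not overlap with each other or with those at the label CD11b. CD8 WT, with a mean of 25.6 ± 6.34 CPM (SD, n = 3), was at least 314-fold higher than CD11b WT, taking 3 counts over the group as the floor (0.0807 CPM). CD8 KO stood 85.3-fold above CD11b KO, with a 95% counting interval of 14.9 to 3406 because the lower group rests on 1 count. Both comparisons share the CD8 libraries on which Mmp9 was selected. Mmp9 also passed the filter on low counts only through the label CD8, so both are given as descriptions.

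Between genotypes at the label CD8, Mmp9 had a mean of 3.89 ± 0.0854 CPM (SD, n = 2) in KO and 25.6 CPM in WT, a ratio of 6.59 and a fitted log2 fold change of −2.71 ± 0.41 (SE). This is the difference that chose the gene and carries no test here. It was −2.69 without CD8 KO 2, where edgeR no longer called it, and between −2.88 and −2.52 with each library left out in turn. At the label CD11b both genotypes lie under the floor of 3 counts, so no fold is given and the genotype difference was not detectable at this depth.

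Mmp12 (ENSMUSG00000049723, chromosome 9, 7344381 to 7369499) encodes macrophage elastase. It stood at 49.8, 41.1 and 22.6 CPM in CD8 WT and at 29.8 and 26.9 CPM in CD8 KO. In CD11b WT it had 1.29, 1.21 and 0.651 CPM and in CD11b KO 2.22 and 0.833 CPM. Every library labelled CD8 was above every library labelled CD11b, while the genotypes overlap at each label. The log2 fold change of the label CD11b over the label CD8 was −5.13 ± 0.36 (SE) in WT (edgeR adjusted p = 7.21e-11) and −4.24 ± 0.43 in KO (edgeR adjusted p = 5.3e-08). The 3′ end of Mmp12 overlaps Mmp1b on the other strand, which the stranded counts keep apart.

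Mmp14 (ENSMUSG00000000957, chromosome 14, 54431612 to 54445364) encodes a membrane-anchored collagenase that also activates the precursor of MMP2, with TIMP2 as the bridge. It stood at 20.8, 24.0 and 20.1 CPM in CD8 WT and at 36.4 and 35.6 CPM in CD8 KO. In CD11b WT it had 1.82, 0.151 and 0.744 CPM and in CD11b KO 0.303 and 2.17 CPM. The groups at the label CD8 do not overlap, with KO above WT, the opposite order to Mmp9 in the same libraries. The log2 fold change between the labels was −4.55 ± 0.48 (SE) in WT (edgeR adjusted p = 5.66e-08) and −4.80 ± 0.57 in KO (edgeR adjusted p = 5.99e-07). Between genotypes at the label CD8 it was 0.74 ± 0.40, a 1.67-fold ratio of the means, which edgeR did not call. Mmp2, the enzyme whose precursor MMP14 activates, had 29 counts in all, 0 of them at the label CD11b.

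Among the inhibitors, Timp2 (chromosome 11), which blocks most matrix metalloproteases, stood at 9.61, 8.33 and 6.81 CPM in CD8 WT and at 5.44 and 7.93 CPM in CD8 KO. It had 2.51, 2.94 and 4.0 CPM in CD11b WT and 3.84 and 6.33 CPM in CD11b KO. The labels do not overlap in WT but do in KO. Between the labels the log2 fold change came to −1.39 ± 0.39 (SE) in WT (edgeR adjusted p = 0.00821) and −0.39 ± 0.47 in KO (edgeR adjusted p = 0.645). The difference of the KO effects between the labels (label CD8 minus label CD11b) was −1.0 ± 0.61 (SE; edgeR adjusted p = 0.945), so a difference between the genotypes was not shown. Timp2 overlaps Cep295nl on the same strand, where their shared sequence cannot be assigned.

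Timp1 (chromosome X), the partner inhibitor of MMP9, had 9 counts in all 10 libraries, 7 of them in CD11b WT 3 and 2 in CD8 KO 2, and was left out of the tests by the filter on low counts. Timp3 (chromosome 10) encodes a matrix-bound inhibitor that also blocks ADAM17. It had 0, 1.06 and 0.372 CPM in CD11b WT and 2.52 and 1.5 CPM in CD11b KO. In CD8 WT it had 0, 0.0905 and 0.378 CPM and in CD8 KO 0.165 and 0.261 CPM. CD11b KO lies above the other groups, and Timp3 passed the filter only through it. For KO over WT at the label CD11b, 43 counts stood against 18, with a fitted log2 fold change of 2.05 ± 1.55 (SE), given as a description because that group admitted the gene. Timp3 lies within Syn3 on the other strand, and 43.7% of its counts on either strand were on the opposite strand, against 5.85% over all genes.

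Adam8 (ENSMUSG00000025473, chromosome 7, 139978932 to 139992562), is a leukocyte protease that sheds adhesion molecules and receptors. It stood at 1056, 1178 and 1052 CPM in CD11b WT and at 1245 and 1280 CPM in CD11b KO. In CD8 WT it had 177, 192 and 159 CPM and in CD8 KO 257 and 206 CPM. The labels were far apart and the genotypes did not overlap at either label, with KO above WT at both. Between the labels the log2 fold change was 2.64 ± 0.10 (SE) in WT (edgeR adjusted p = 1.43e-15) and 2.45 ± 0.12 in KO (edgeR adjusted p = 3.34e-13). For KO over WT it was 0.20 ± 0.10 at the label CD11b (edgeR adjusted p = 0.785) and 0.40 ± 0.10 at the label CD8, and edgeR called neither.

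Adam10 (chromosome 9), which cuts Notch receptors and CD23, stood at 67.9, 84.8 and 78.6 CPM in CD11b WT, 68.6 and 84.8 CPM in CD11b KO, 100.1, 96.2 and 96.0 CPM in CD8 WT and 89.1 and 93.6 CPM in CD8 KO. All libraries labelled CD8 lie above all those labelled CD11b, by a small margin. In log2 terms the labels differed by −0.34 ± 0.12 (SE) in WT (edgeR adjusted p = 0.0341) and −0.25 ± 0.15 in KO (edgeR adjusted p = 0.253). The call in WT was lost without any 1 of CD11b WT 1 or 3 or CD8 WT 1, 2 or 3, with edgeR adjusted p between 0.0608 and 0.155, and with no filter (0.0663).

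Adam17 (chromosome 12), the enzyme that releases TNF and its receptors, stood at 159, 199 and 150 CPM in CD11b WT, 202 and 204 CPM in CD11b KO, 130, 160 and 138 CPM in CD8 WT and 186 and 175 CPM in CD8 KO. KO lies above WT without overlap at both labels. The log2 fold change for KO over WT was 0.26 ± 0.12 (SE) at the label CD11b (edgeR adjusted p = 0.773) and 0.34 ± 0.12 at the label CD8, and edgeR called neither. Between the labels it was 0.25 ± 0.11 in WT (edgeR adjusted p = 0.108) and 0.17 ± 0.14 in KO (edgeR adjusted p = 0.451). Without CD8 WT 2 the comparison in WT passed, at 0.35 (edgeR adjusted p = 0.0418).

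**Figure D2:**
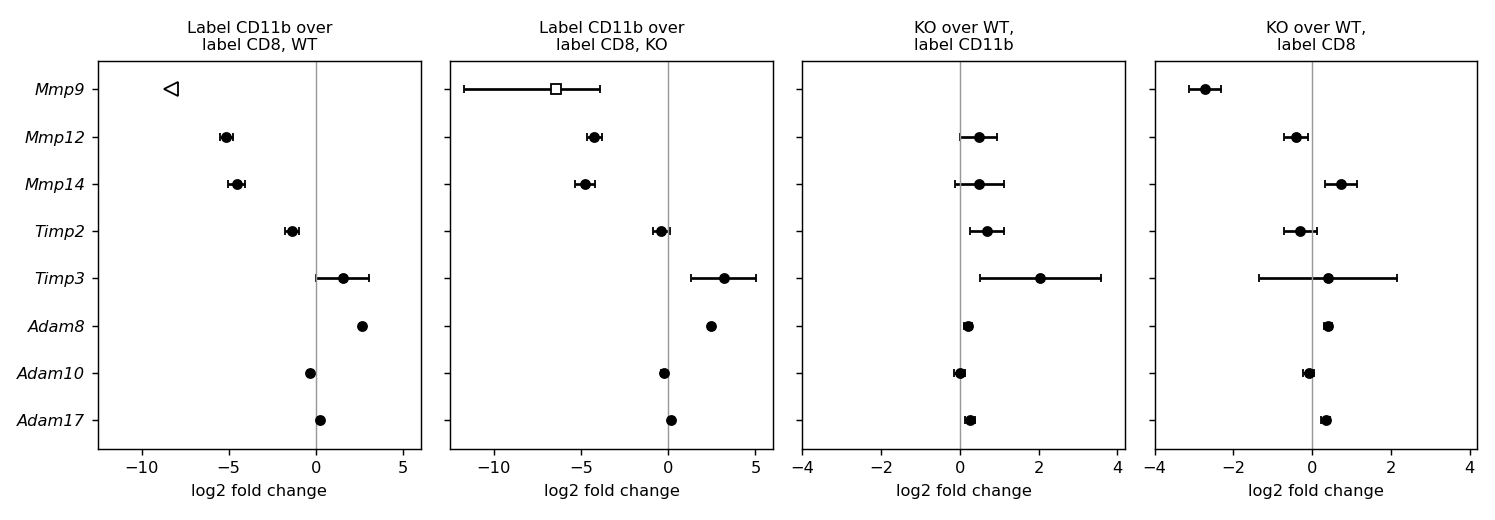
Log2 fold changes (horizontal axis) of the 8 genes tested in 4 comparisons. Filled points are fitted values with bars of 1 SE, the open triangle is a bound for Mmp9 from 3 counts over the CD11b WT group, and the open square is the Mmp9 count ratio with its 95% counting interval. Mmp9, Mmp12 and Mmp14 lie left of 0 in both label panels and Adam8 right of 0, while in the KO panels all values lie within 1 of 0 apart from Mmp9 and from Timp3, which has wide bars.

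Counted over the set, 6 of the 8 genes tested were called by edgeR between the labels in WT, 1 higher and 5 lower at the label CD11b. Over all 14528 genes tested the share called was 29.5%, with 13.8% higher and 15.7% lower. In KO 4 of 8 were called, 1 higher and 3 lower, against 22.8% of all genes, 10.3% higher and 12.5% lower. The 4 were Mmp9, Mmp12, Mmp14 and Adam8, and Timp2 and Adam10 were called in WT as well. Mmp9 is counted in WT and in KO, though its label comparisons are given as descriptions. The median log2 fold change of the 8 genes was −0.86 in WT and −0.32 in KO, with medians of 0.00 and −0.01 over all genes.

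At the label CD11b, the comparison of KO with WT called 0 of 8 members in edgeR, DESeq2 and limma-voom, and 1 had an unadjusted p under 0.05 in edgeR (Adam17). The background was 0.145% of all genes. The median of the 7 genes other than Mmp9 was 0.48, against −0.01 over all genes. Mmp12 and Mmp14 had log2 fold changes of 0.48 ± 0.48 and 0.49 ± 0.62 (SE) on few counts. The sign turned for Mmp12 without CD11b KO 1 (−0.35), and for Mmp14 without CD11b KO 2 (−1.56) or CD11b WT 2 (−0.03). At the label CD8 the only gene called was Mmp9, on which the set rests, beside 0.145% of all genes. The other genes there had log2 fold changes of −0.41 ± 0.31 (Mmp12), −0.30 ± 0.42 (Timp2), 0.40 ± 1.75 (Timp3) and −0.09 ± 0.13 (Adam10), besides those given for Mmp14, Adam8 and Adam17.

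The difference of the KO effects between the labels was called for 0 of the 8 genes by edgeR, DESeq2 or limma-voom, with 0.0206% of all genes called by edgeR. For Mmp9 this difference could not be assessed, since its counts at the label CD11b were 0 or 1 and the other arm is the comparison that chose it. Among the other 7 genes the edgeR adjusted p ranged from 0.945 to 1, and 0 had an unadjusted p under 0.05. Adam8 had a difference of 0.19 ± 0.15 and Adam17 of 0.08 ± 0.18 (SE, log2), so their higher values in KO were not shown to differ between the labels. All comparisons of genotype and label use the same 10 libraries and are not independent of each other.

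Per length of exon (CPM per kb of merged exons), the sheddases led in every group. Adam8 came first, at 236 ± 15.5 CPM per kb in CD11b WT (SD, n = 3) and 37.9 ± 3.49 in CD8 WT. Adam17 and Adam10 followed, at 23.7 ± 3.66 and 15.7 ± 1.74 CPM per kb in CD11b WT, without overlap except in CD8 WT, where they reached 19.9 and 19.8 CPM per kb. The metalloproteases came next at the label CD8. In CD8 WT, Mmp9, Mmp12 and Mmp14 had 7.24 ± 1.79, 5.23 ± 1.92 and 3.63 ± 0.349 CPM per kb, and neighbours in this order overlap. In CD8 KO the order was Mmp14 (6.04 ± 0.0924), Mmp12 (3.92 ± 0.283), Timp2 (1.71 ± 0.452) and Mmp9 (1.10 ± 0.0241, SD, n = 2), without overlap. At the label CD11b, Timp2 followed Adam10, at 0.808 ± 0.197 CPM per kb in WT and 1.30 ± 0.453 in KO, and the lower ranks mostly overlap. With the longest transcript as the length, Mmp12 came before Mmp9 in CD8 WT.

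**Figure D3:**
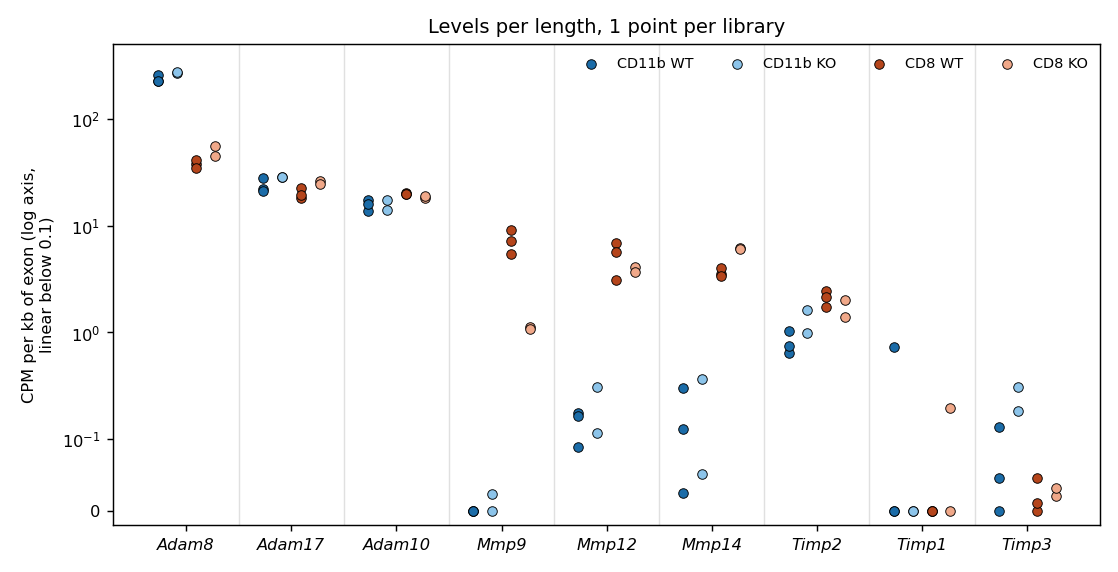
Level per length of the 9 genes, in CPM per kb of merged exons (vertical axis, log above 0.1 and linear below), with 1 point per library coloured by group. Adam8, Adam17 and Adam10 are highest in every group, and Mmp9, Mmp12 and Mmp14 are higher at the label CD8 than at the label CD11b.

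Mmp9 was also set beside 10930 other genes by the correlation of log2 CPM over the 10 libraries, a description in which all points share their libraries and the split by label. The 5 genes most like it were Heatr5a (Pearson r = 0.991), Slc12a2 (0.988), which encodes a sodium, potassium and chloride cotransporter, Zswim4 (0.986), Arhgap6 (0.982), a GTPase-activating protein, and Gpr132 (0.982), a G protein-coupled receptor. Arhgap6, for example, had means of 74.2 ± 0.909 CPM in CD8 WT (SD, n = 3), 50.5 ± 8.06 in CD8 KO (SD, n = 2) and 11 CPM in both CD11b WT and CD11b KO. Within the set, r with Mmp9 was 0.952 for Mmp12, 0.884 for Mmp14, 0.852 for Adam10 and 0.845 for Timp2. It was −0.565 for Timp3, −0.602 for Adam17 and −0.971 for Adam8.

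Other proteases of the same families were mostly low or ran in both directions between the labels. Of 16 other matrix metalloproteases, 5 passed the filter. Mmp28 (epilysin) was higher at the label CD11b in WT and in KO, with log2 fold changes of 2.00 ± 0.39 (SE; edgeR adjusted p = 0.000253) and 2.24 ± 0.48 (0.00102). It stood at 8.74 to 15.2 CPM in CD11b WT and 1.90 to 3.35 CPM in CD8 WT. Mmp19 had 1.07 ± 0.29 in WT (edgeR adjusted p = 0.00576) and 0.42 ± 0.34 in KO (0.457). Mmp25, a metalloprotease held in the membrane by a lipid anchor, had 0.67 ± 0.25 in WT (edgeR adjusted p = 0.0497), a call kept in 1 of 10 fits that leave out a library. Of the 5, 3 were called higher and 0 lower in WT, and 1 higher and 0 lower in KO. The shares of all genes were 13.8% higher and 15.7% lower in WT, and 10.3% and 12.5% in KO. The values of Mmp23, which missed the threshold in both, were −0.20 ± 0.81 in WT and −0.66 ± 0.97 in KO.

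Of 10 other ADAM genes 8 were tested, and 1 was higher and 4 lower at the label CD11b in WT (1 and 3 in KO). Among all genes tested, 13.8% were higher and 15.7% lower in WT, and 10.3% and 12.5% in KO. Adam19 (meltrin beta) was the higher one, at 905 to 948 CPM in CD11b WT and 252 to 289 CPM in CD8 WT, with log2 fold changes of 1.80 ± 0.08 (SE; edgeR adjusted p = 6.8e-14) and 1.73 ± 0.10 in KO (9.11e-12). Adam11, a family member without protease activity, had −1.66 ± 0.17 in WT (edgeR adjusted p = 3.31e-08) and −1.17 ± 0.20 in KO (0.000118). Adam15 had −1.46 ± 0.30 in WT (edgeR adjusted p = 0.000621) and −0.40 ± 0.36 in KO (0.508). Adam9, a widely expressed sheddase, had −0.57 ± 0.14 in WT (edgeR adjusted p = 0.0035) and −0.785 ± 0.174 in KO (0.00145). Of 19 ADAMTS proteases, which are secreted, 7 were tested and 1 was lower, Adamts10, with −1.10 ± 0.18 in WT (edgeR adjusted p = 4.24e-05) and −1.24 ± 0.23 in KO (0.000206). Of 7 other inhibitors, 2 were tested, Reck and Spock2. Spock2 was called lower in KO alone, at −2.19 ± 0.76 (edgeR adjusted p = 0.0388), and kept that call in 4 of 10 fits that leave out a library.

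Of 13 genes that carry, escort or process ADAM10 and ADAM17, all were tested. At the label CD11b 3 were higher and 4 lower in WT, and 2 higher and 2 lower in KO, where 29.5% and 22.8% of all genes were called in either direction. Tspan33 and Tspan14 belong to the tetraspanins that bring ADAM10 to the cell surface. Tspan33 stood at 43.2 to 64.4 CPM in CD11b WT and 14.4 to 22.2 CPM in CD8 WT, which gave 1.5 ± 0.18 (SE, log2; edgeR adjusted p = 6.79e-07). Tspan14 ran the other way, at 15.1 to 24.2 and 38.9 to 52.7 CPM, with −1.31 ± 0.19 (edgeR adjusted p = 8.23e-06). Pcsk5, a proprotein convertase, had 10.5 to 18 CPM under the label CD11b and 0 to 0.174 CPM under the label CD8. It passed the filter on low counts only through the label CD11b. Its difference is given as a description, though it is counted among the genes called higher in WT and in KO. Furin, the convertase best known for removing ADAM prodomains, had 0.47 ± 0.11 in WT (edgeR adjusted p = 0.00136).

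Of 28 known substrates of ADAM10 or ADAM17, 26 were tested, and 3 were higher and 14 lower at the label CD11b in WT (2 and 13 in KO). Over all genes 13.8% were higher and 15.7% lower in WT, and 10.3% and 12.5% in KO. Their median log2 fold change was −0.92 in WT and −0.83 in KO, against 0.00 and −0.01 over all genes. Il1r2, the decoy receptor of interleukin 1, had −3.65 ± 0.10 in WT (SE; edgeR adjusted p = 1.53e-17), Csf1r, the receptor of the macrophage growth factor CSF1, −3.96 ± 0.16 (1.15e-14), the endocytic receptor Lrp1 −2.92 ± 0.20 (2.66e-11) and App −1.41 ± 0.10 (4.14e-11). Il1r2 is also one of the type 2 markers, and Axl, Mertk and Vcam1 are also red pulp macrophage markers. These are transcript levels and hold no measure of cleavage.

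The list of proteins that act on secreted metalloproteases, mostly the plasminogen system and cathepsins, had 11 of 16 genes tested, with 1 higher and 4 lower at the label CD11b in WT (1 and 5 in KO), beside 13.8% of all genes higher and 15.7% lower in WT (10.3% and 12.5% in KO). Plaur, the urokinase receptor, had −2.20 ± 0.18 in WT (SE; edgeR adjusted p = 1.18e-09) and −3.00 ± 0.23 in KO (7.43e-10). Ctss, which encodes cathepsin S, had −0.85 ± 0.09 in WT (edgeR adjusted p = 3.03e-08) and −1.08 ± 0.10 in KO (2.98e-08). Serpinb2, which encodes an inhibitor of plasminogen activators, was the higher gene in WT, at 3.86 ± 0.45 (edgeR adjusted p = 2.86e-07). It stood at 18.9 ± 2.23 CPM in CD11b WT (SD, n = 3) and 1.28 ± 0.377 CPM in CD8 WT.

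Between genotypes, 1 of the 72 tested genes of these 7 lists was called at the label CD11b and 0 at the label CD8 by edgeR. Over all genes the share called was 0.145% at each label. Il1r2 was lower in KO at the label CD11b, at 33.6 ± 0.302 CPM (SD, n = 2) against 49.9 ± 5.94 CPM (SD, n = 3), with −0.57 ± 0.11 (SE; edgeR adjusted p = 0.0296). That call was lost in 6 of 10 fits that leave out a library, with edgeR adjusted p up to 0.289, and with limma-voom (adjusted p = 0.854). At the label CD8, limma-voom called 0 of the 72 and DESeq2 0 of those with an adjusted p (7 had none), and 6 had an unadjusted p under 0.05 in edgeR. Plaur had −0.78 ± 0.21 at the label CD11b (edgeR adjusted p = 0.309), Vcam1 0.59 ± 0.17 (0.309) and Ctsb, which encodes cathepsin B, 0.34 ± 0.12 (0.492) at the label CD8. The difference of KO effects was called for 0 of the 72 by edgeR, DESeq2 or limma-voom, beside 0.0206% of all genes by edgeR. In edgeR 8 of the 72 had an unadjusted p under 0.05. No share of all genes was counted for the unadjusted p-values.

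Markers of cells that can carry these proteases moved with some of the groups. In these libraries from sorted cells in bulk, fewer cells of a type and less RNA per cell cannot be told apart. Neutrophils store MMP9 in granules, and the summed CPM of 12 neutrophil markers was 16.3 to 20.3 in CD8 WT, 20.3 to 20.9 in CD8 KO, 1.74 to 3.72 in CD11b WT and 3.33 to 4.50 in CD11b KO. Most of it at the label CD8 was Csf3r, a growth factor receptor, at 9.61 to 17.4 CPM. Without Csf3r the sum was 3.35 to 6.70 in CD8 WT and 2.87 to 4.61 in CD8 KO. At the label CD11b it was then 1.51 to 3.72 in WT and 3.08 to 3.33 in KO. The labels overlap in both genotypes once Csf3r is left out. Of the 12 markers 3 passed the filter, and 2 were lower at the label CD11b in WT, beside 15.7% of all genes. They were Csf3r, at −5.27 ± 0.67 (SE, log2), and Ltf, at −5.20 ± 1.93 on a mean of 0.652 CPM. In KO 1 was lower, Csf3r, beside 12.5% of all genes. The filter on low counts admitted both genes mainly through the label CD8, where they are high. These calls are therefore given as descriptions. Between genotypes at the label CD8, 0 of the 3 were called (edgeR; 0 at an unadjusted p under 0.05). S100a8 had 2 counts in 1 library. Between 4 and 10 of the 12 markers were at 0 in each library.

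The 14 red pulp macrophage markers summed to 329 to 434.5 CPM in CD8 WT, 525 to 548 CPM in CD8 KO, 163.5 to 201 CPM in CD11b WT and 194 to 223 CPM in CD11b KO. At the label CD8 the sums were higher in KO than in WT without overlap, and 0 of the 14 markers were called by edgeR. Mmp14 was higher in KO at that label and Mmp9 lower, and a link of either to these sums was not tested. The 10 B cell markers summed to 106 to 217 CPM in CD8 WT, 139 and 566 CPM in CD8 KO 1 and 2, and 35.2 to 52.0 CPM at the label CD11b. Without CD8 KO 2, the library with the highest B cell sum, Mmp9 had −2.69 and Mmp14 0.76 at the label CD8. The 12 stromal and endothelial markers summed to 90.2 to 122 CPM at the label CD11b and 105 to 141 CPM at the label CD8. The 10 monocyte markers summed to 115 to 133 CPM at the label CD11b, 174 to 196 CPM in CD8 WT and 153 to 187 CPM in CD8 KO, and the 10 markers of mature dendritic cells to 776 to 1323, 1215 to 1292 and 1481 to 1496 CPM in the same order. The part of these cells in the values of the metalloproteases was not tested.

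**Figure D4:**
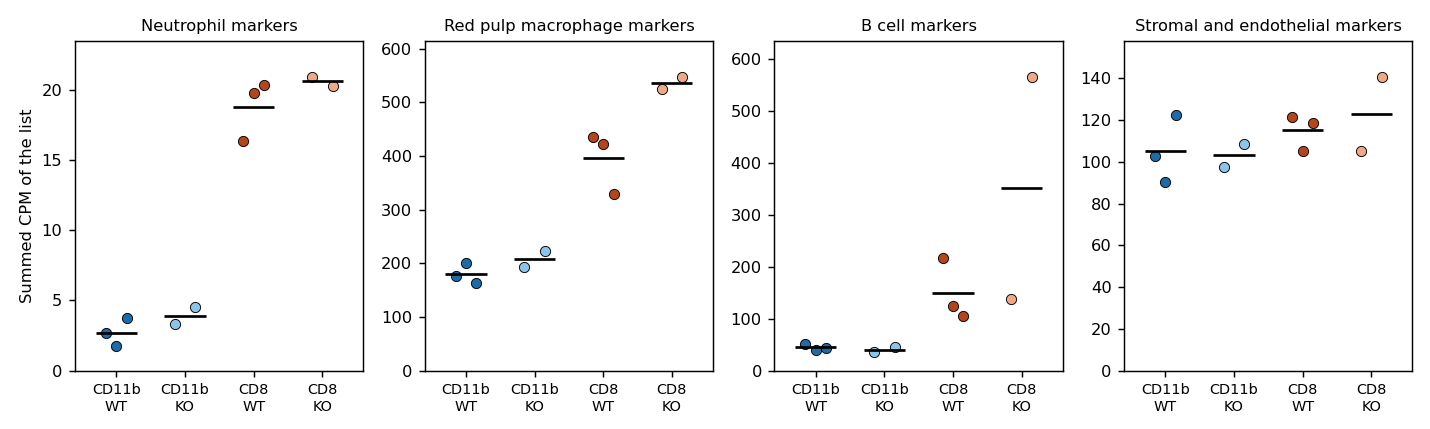
Summed CPM (vertical axis, from 0) of 4 lists of markers of other cell types in the 4 groups, with 1 point per library and a line at the group mean. Neutrophil and red pulp macrophage sums are higher at the label CD8, but without Csf3r (not drawn) the neutrophil sums of the labels overlap. The red pulp macrophage sums are 525 to 548 CPM in CD8 KO against 329 to 434.5 CPM in CD8 WT. In 1 CD8 KO library the B cell sum is 566 CPM.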

How the data were processed

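RNA sequencing reads were aligned by the authors with STAR 2.5.0a to GRCm38, per the submitters' processing notes; the annotation release is not given in the sources used here. The deposited files hold unnormalized counts for each gene and strand, and the strand with 16.1 times the counts of the other was used. Symbols and lengths came from GENCODE (GRCm38), in which 53274 of 53379 identifiers were found. Reads given to no gene, among them those mapped to several places (21.73% to 25.53%), stayed out of library sizes.

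CPM used TMM-scaled totals. Genes were filtered with filterByExpr by group, which left 14528 genes, and 4 group means were fitted to all 10 libraries with the quasi-likelihood test of edgeR 4.0.16 (R 4.3.3). P-values were adjusted by Benjamini-Hochberg over all genes and called under 0.05. Standard errors are the absolute log2 fold change over the root of F. The method was tested on simulated counts. Likeness to Mmp9 used log2 CPM with a prior count of 2 and genes with a mean of at least 1 CPM. The 95% counting intervals and the floors allow for counting error alone.

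The members and gene lists were chosen with earlier results of these data known. All 9 members are named, with up to 4 genes of smallest p per pathway list and comparison (mean at least 1 CPM). Alternatives were RLE size factors, no filter, DESeq2 1.42.0, unstranded counts, a minimum of 1 CPM in 3 libraries, leaving out mitochondrial and rRNA genes, limma-voom with quality weights (limma 3.58.1), leaving out libraries, fits of only the groups compared, and replicate blocks. Groups of 2 or 3 libraries share 1 estimate of the spread, and a fit that leaves a group with 1 library assumes that it varies like the others.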

Additional observations from a re-analysis of the deposited data

Results flagged for a closer look

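Timp3 had 55 counts on the strand opposite to its own over the 10 libraries, in a column of the deposited counts that no comparison used, beside 71 on its own strand. A count of 0 would allow up to 3. Timp3 lies inside Syn3, which is transcribed from the opposite strand.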

How the results depend on the processing

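No called value of a member changed sign under the settings tried. For the members, 779 values under other settings stayed on their side of the threshold, 8 lost a call and 2 gained one; 7 of the losses are of Adam10 between the labels in WT. The counts of genes called over all genes moved more. Between genotypes at the label CD11b, 21 genes became 71 with no filter, 42 with DESeq2, 13 without both CD11b WT 1 and CD8 KO 2 and 13 with only the groups compared, and 14 to 29 with each library left out. At the label CD8, 21 became 142 with no filter, 54 with DESeq2, 63 with limma-voom and 63 with only the groups compared, and 7 (without CD8 KO 2) to 53 (without CD8 KO 1) with each library left out, with 32 without CD11b WT 1. The difference of KO effects had 3 genes, and 41 with no filter, 6 with unstranded counts, 11 with DESeq2 and 3 to 8 with each library left out (8 without CD8 KO 1, 6 without CD8 WT 1, 5 without CD11b WT 1, CD11b WT 3 or CD8 WT 3). The cause was not tested. The label comparisons had 3663 to 4334 genes in WT and 2421 to 3470 in KO with each library left out. Among the members, 4 were called between the labels in KO under every setting, 5 or 6 in WT, and 0 between genotypes at the label CD11b. At the label CD8 the count of members called was 0 to 2.

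The labels do not say whether equal replicate numbers mark the same mouse. Same-numbered libraries of 1 genotype had deviations from their group means correlated at 0.018 to 0.049. Differently numbered libraries of 1 genotype at different labels had −0.041 to 0.012. The same-numbered values lie above the others without overlap, the order that pairing would give. In KO, with 2 libraries per group, the values of 0.041 and −0.041 mirror each other by construction. All values lie under the 0.1 taken as a sign of pairing, and the samples were treated as unpaired. Pairing is not excluded. With a replicate block the label comparisons had 4462 and 3564 genes, the genotype comparisons 29 and 26, and the difference of KO effects 28, and no member's call changed. Low counts limit Timp1, Timp3 and, at the label CD11b, Mmp9, Mmp12 and Mmp14.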
